A study of Drosophila melanogaster with 51 samples.

Results

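Larvae lacking a functional CSN5 gene (csn5null) were compared with wild-type larvae (w118 in the labels) at 60 h after egg deposition, on 5 of the 51 2-colour arrays of a study of COP9 signalosome mutants of Drosophila melanogaster. The members are the arrays whose titles give csn5null and that age, replicates 1 to 5, with every gene on them. Each array carried whole-larva total RNA of the mutant in one dye and of age-matched wild type in the other, with the mutant in Cy3 on replicates 1 and 2 and in Cy5 on replicates 3 to 5. The groups set beside them were csn4null (3 arrays), csn51 (4) and csn53 (5) at 60 h, and csn5null at 72 h and 96 h (4 arrays each), every one also against wild type of its own age. The csn4null larvae carry a mutation in the CSN4 subunit, and csn51 and csn53 are further mutants of CSN5 whose lesions the labels do not describe. The labels call the 5 arrays biological repeats, yet the wild-type channel of all 5, and of 3 csn51 arrays at 60 h, bears the number 1, so these arrays may share wild-type RNA. A p-value here speaks only of the scatter among arrays within groups, pooled over all groups of the study. Larvae were extracted whole, so fewer cells of a type and less RNA per cell cannot be told apart.

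The COP9 signalosome, a complex of several protein subunits, acts on cullins, which hold together many of the cell's ubiquitin ligases, by cleaving off the small modifier NEDD8. CSN5 is its catalytic subunit, a metalloprotease, and CSN4 is a scaffold subunit needed for an intact complex. Removal of NEDD8 lets cullin ligases exchange their substrate adaptors, and in flies the complex is required for larval development. At usual rearing temperatures larvae moult into the last instar around the ages sampled here, and a new cuticle is then made under the old one.

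The deposited values were taken as log2 ratios, and every sign was turned to read mutant over wild type. That direction is likely rather than stated, since it rests on CSN4 and CSN5 in their own nulls, and a natural logarithm was not excluded. CSN5, on chromosome arm 3R, read -4.15, -4.36, -4.05, -4.74 and -4.78 on replicates 1 to 5, so every array labelled csn5null had a strong CSN5 deficit. Its direction set the sign and is no independent result. At the later ages 1 array each went against its label, since CSN5 read -3.98, -4.04, -0.32 and -3.44 on the arrays labelled csn5null at 72 h and -3.84, -3.11, -0.01 and -1.16 at 96 h. Replicate 3 was the array near 0 at both ages. The 96 h minus 60 h difference in CSN5 was 2.42 ± 0.44 (SE, limma adjusted p = 0.000411), and 1.75 (adjusted p = 5.85e-06) without both replicates 3. In csn51 and csn53 at 60 h the mean CSN5 ratio was -0.47 and -0.50. CSN4 read 0.09, 0.23, 0.11, 0.29 and 0.08 on the 5 csn5null arrays and did not pass the test (0.17 ± 0.13, limma adjusted p = 0.625), against a mean of -2.38 in csn4null.

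Replicate 5 stood apart from the other arrays. Over all features Pearson's r lay between 0.604 and 0.807 for the 6 pairs among replicates 1 to 4, and between -0.175 and 0.132 for the 4 pairs with replicate 5. The array most like replicate 5 was a csn53 array of 60 h (r = 0.63), and its median r was 0.399 with csn4null, 0.502 with csn51 and 0.584 with csn53 at 60 h. For replicates 1 to 4 those medians were -0.0352, -0.181 and -0.114. With csn5null at 72 h and 96 h the median r was 0.374 and 0.365 for replicate 5, and 0.141 and 0.131 for the others. These correlations run across features of arrays that share the platform and may share wild-type RNA, and are given as a description. The duplicate spots of replicate 5 correlated at 0.881 against 0.627 to 0.793 on the others. Its ratios spread wider, with an SD of 0.529 against 0.341 to 0.405. A wider spread can by itself raise such a correlation, so whether replicate 5 was a noisier array was not tested. Among replicates 1 to 4 the pairs of one dye were the most alike over all features, with r of 0.807 for replicates 1 and 2 and 0.767 for 3 and 4, beside 0.754 for 1 and 3 and 0.632 for 2 and 4. The dye contrast had an SD of 0.248 over all features, and the contrast of replicates 1 and 3 with 2 and 4 one of 0.207. Over the 102 features with a mean beyond 1 the order was the other way, 0.313 for dye and 0.66 for replicates 1 and 3 against 2 and 4. The labels do not say whether any of these arrays share a mutant RNA extract. Results are given with all 5 arrays first, and without replicate 5 where that changed them.

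A limma model over all arrays, with a dye term, called 463 of 5871 features at an adjusted p under 0.05, or 7.89%, with 268 higher (4.56%) and 195 lower (3.32%) in the mutant. Without replicate 5 it called 845 features (14.4%), with 428 higher (7.29%) and 417 lower (7.1%), and 405 features were called both ways, 87.5% of the first set and 47.9% of the second. Of the 463, 371 had one sign on all 5 arrays (230 higher and 141 lower), while 19.3% of all features with 5 values did. A call on the mean of these same arrays favours one sign, so that contrast is only a description. The count also depended on the other arrays, and it was 282 to 296 when any one of replicates 1 to 4 was left out. With replicates 1 and 3 averaged, and 2 and 4, which leaves 3 samples, it was 157, a setting chosen after seeing the data. Large changes were few, with 39 called features above a log2 ratio of 1 and 28 below -1. Replicate 5 had the opposite sign in 499 of the 845 features called without it. Among the 91 of these beyond 1 on the log2 scale it had the same sign in 62 (68.1%), against 40.9% of the 845. Changes are given as the model's log2 ratio ± SE. The model's ratios can differ slightly from the plain mean of the arrays because the model corrects for dye. Its SE pools the spread within all 12 groups of arrays. For a given gene it can thus be smaller or larger than the scatter of the 5 csn5null arrays alone would give.

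**Figure D1:**
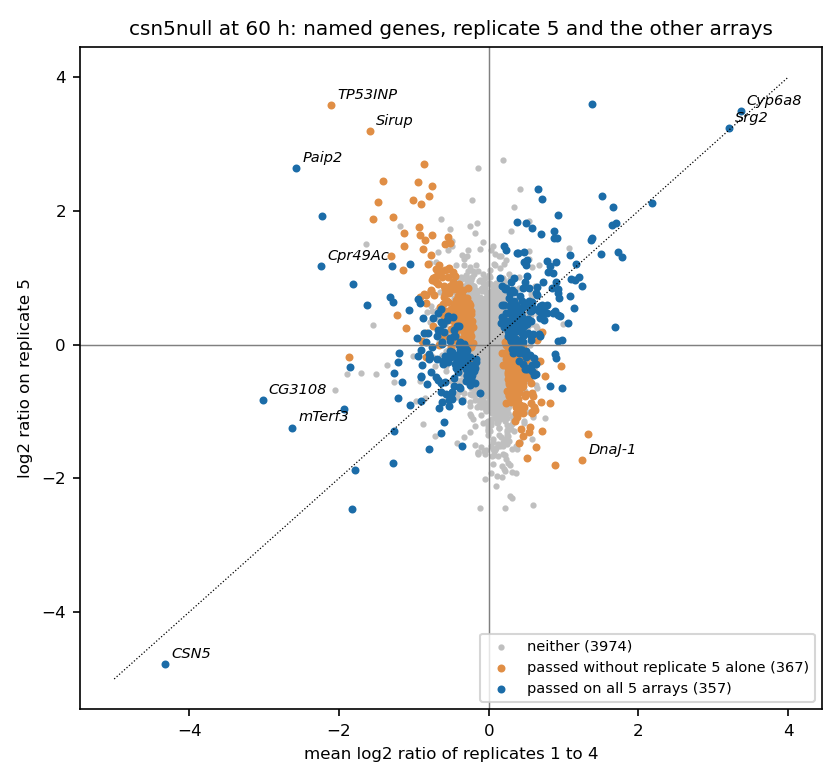
Log2 ratio of each named gene on replicate 5 (vertical axis) against its mean on replicates 1 to 4 (horizontal axis). Blue points passed the test on all 5 arrays and orange points passed only without replicate 5, and the dotted line marks equal values. CSN5, Cyp6a8 and Srg2 lie near that line, whereas Paip2, TP53INP and Sirup lie where replicate 5 was above 0 and the mean of the other arrays below it.

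The genes with the largest rises included enzymes of detoxification and a gene of antiviral immunity, at nearly the same level on all 5 arrays. Cyp6a8, a cytochrome P450 gene inducible by foreign compounds, read 3.14, 3.78, 3.23, 3.30 and 3.50 on replicates 1 to 5 (3.43 ± 0.36, limma adjusted p = 3.59e-09). Srg2, a gene of the fly's STING response, read 3.00, 3.79, 2.84, 3.19 and 3.23 (3.24 ± 0.38, adjusted p = 3.61e-08). In both genes the lowest array was still far above 0 and replicate 5 lay inside the range of the others. Of 15 measured genes of antimicrobial and humoral immunity Srg2 alone was called (6.67%, beside 7.89% of all features). Without replicate 5, 1 was higher and 1 lower (13.3%, beside 14.4%). GstZ1, a glutathione transferase of the zeta class that acts in tyrosine breakdown, read 2.19, 2.54, 1.78, 2.19 and 2.12 (2.18 ± 0.24, adjusted p = 1.92e-08). Oatp33Ea, an organic anion transporter, read 1.77, 1.85, 1.74, 1.75 and 1.30 (1.70 ± 0.12, adjusted p = 9.78e-14). Both rose on every array, Oatp33Ea least on replicate 5. The esterase gene alpha-Est5 rose by 1.69 ± 0.16 with arrays between 1.38 and 1.79.

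Idh, the NADP-dependent isocitrate dehydrogenase, was among the tightest, at 1.56, 1.48, 1.50, 1.47 and 1.35 (1.48 ± 0.12, limma adjusted p = 2.86e-12). The spread of its arrays had an SD of 0.08. Rdh1, annotated as a retinol dehydrogenase, read between 1.59 and 1.82 on all 5 arrays (1.74 ± 0.25), and CG40486 between 1.10 and 2.03 (1.74 ± 0.26). The serine protease family genes CG11911 and CG18180 rose by 1.74 ± 0.21 and 1.62 ± 0.14, and CG7099 by 1.45 ± 0.31. CG8745 differed in its spread, with 1.47, 1.32, 1.17 and 1.54 on replicates 1 to 4 and 3.60 on replicate 5. Its mean was 2.50 in csn51 and 3.42 in csn53 at 60 h, and its log2 ratio without replicate 5 was 1.37 in place of 1.84.

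After CSN5 the largest falls shared by all 5 arrays were those of CG3108, mTerf3 and Culd. CG3108, a metallocarboxypeptidase gene, read -2.99, -3.32, -2.50, -3.27 and -0.83 (-2.59 ± 0.77, limma adjusted p = 0.0268). Replicates 1 to 4 were close together and replicate 5 was the least reduced. mTerf3, a mitochondrial transcription termination factor family member, read -2.68, -2.61, -2.66, -2.55 and -1.24 (-2.34 ± 0.21, adjusted p = 3.2e-11). The same order held there, with replicate 5 reduced least and still well below 0. Culd, which encodes a CUB and LDLa domain protein, read -1.60, -2.21, -1.62, -1.88 and -2.46 (-1.94 ± 0.27, adjusted p = 2.49e-06), and here replicate 5 was the lowest array.

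CG4860, a gene of the acyl-CoA dehydrogenase family, fell by 1.83 ± 0.25 with all 5 arrays between -1.88 and -1.69 (limma adjusted p = 1.07e-06). Unc-115b and Unc-115a, a pair of actin-binding LIM protein genes, read -1.74 ± 0.20 and -1.04 ± 0.14, and both were below 0 on every array. The paralogues may hybridise to each other's clones, which was not tested. dyl (dusky-like), a zona pellucida domain protein of the apical matrix under the cuticle, read -1.27, -1.75, -2.47, -1.89 and -0.34 (-1.52 ± 0.47, adjusted p = 0.0332). The other falls of this kind were CG3699 (-1.39 ± 0.14), the serpin gene Spn47C (-1.28 ± 0.21), CG5953 (-1.13 ± 0.17) and the P450 gene Cyp9f2 (-1.09 ± 0.14). All 12 named rises and all 12 named falls remained past the test without replicate 5. They were picked as the largest called changes with one sign on every array, which favoured that outcome. Of these 24 genes 22 also passed when any one of the other arrays was left out. The exceptions were CG3108 (adjusted p from 0.077 to 0.119 without one of replicates 1 to 4) and dyl (0.0852 to 0.171).

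**Figure D2:**
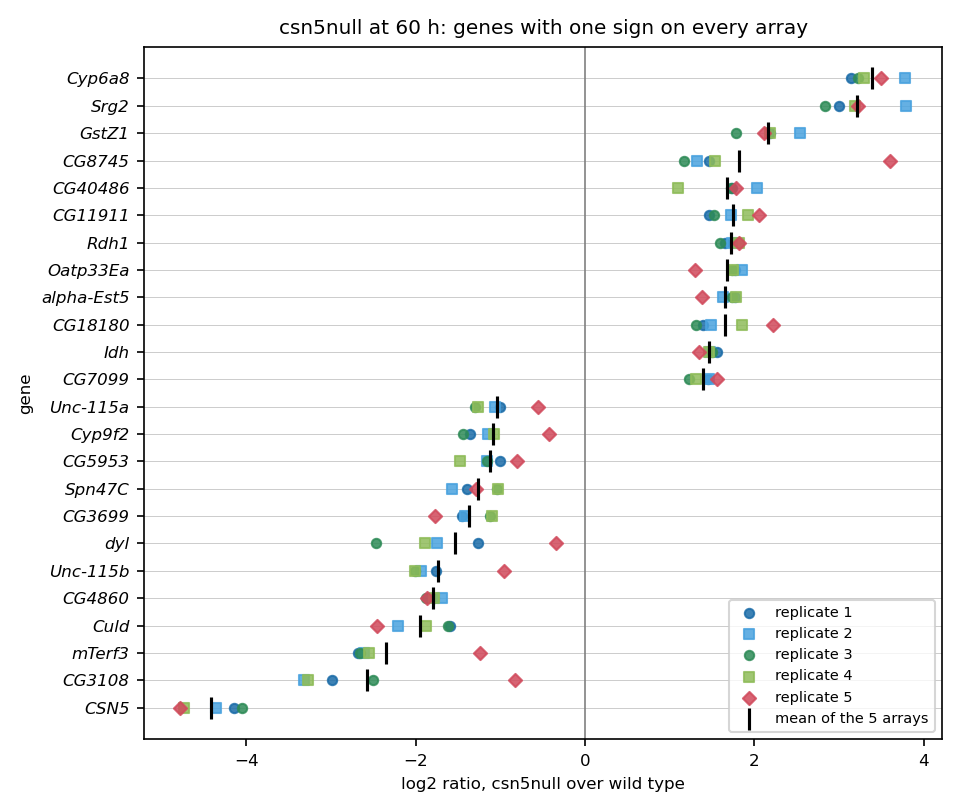
Log2 ratio on each of the 5 arrays (horizontal axis, mutant over wild type) for the named genes that had one sign on every array and changed most, 12 upwards and 12 downwards. Symbols mark the arrays and black ticks their mean. Replicate 5 lies among the others for Cyp6a8, Srg2 and CG4860, and nearest to 0 for CG3108, mTerf3 and dyl.

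Detoxification genes changed in both directions. Of 30 measured cytochrome P450 genes, which encode haem oxidases of hormones and foreign compounds, 8 were higher and 4 lower, 40% of the list beside 7.89% of all features, and 7 were higher and 8 lower without replicate 5, 50% beside 14.4%. Their median log2 ratio was 0.08, beside 0.00 over all features. Cyp4e2 rose by 1.03 ± 0.09 (limma adjusted p = 9.4e-11), Cyp6w1 by 1.06 ± 0.19 and Cyp4d2 by 0.81 ± 0.13, each above 0 on all 5 arrays. Cyp9f2 fell, reading -1.36, -1.15, -1.44, -1.08 and -0.43. Among 19 glutathione transferase, UDP-glycosyltransferase and esterase genes 4 were higher and 2 lower (31.6%), and 3 higher and 4 lower without replicate 5 (36.8%). GstO2, an omega-class transferase, rose by 0.90 ± 0.10 with arrays between 0.84 and 1.02. GstE11 read -0.57 ± 0.10 and the esterase gene Est-Q -0.77 ± 0.17, both below 0 on all 5 arrays. The median of the P450 list was 0.54 on replicate 5 and between -0.05 and 0.08 on the others.

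Genes of the oxidative stress response and of sugar metabolism changed gene by gene. Of 16 oxidative stress genes 3 were higher and 3 lower (37.5%, beside 7.89% of all features). Keap1, the adaptor that brings the Nrf2 homologue CncC to a cullin ligase, read 1.05, 0.52, 1.07, 0.73 and 0.84 (0.87 ± 0.13, limma adjusted p = 1.07e-05). Gclm, the modifier subunit of the enzyme that starts glutathione synthesis, read 0.88, 0.86, 0.87 and 0.95 on replicates 1 to 4 but -0.20 on replicate 5 (0.66 ± 0.13, adjusted p = 0.000432). The mitochondrial superoxide dismutase gene Sod2 was higher by 0.30 ± 0.07, while the thioredoxin gene Trx2 (-0.31 ± 0.08) and the ferritin heavy chain gene Fer1HCH (-0.30 ± 0.06) were lower. In 19 genes of the tricarboxylic acid cycle and glycolysis 4 were higher and 1 was lower (26.3%). Besides Idh these were Gpdh1, the NAD-dependent glycerol-3-phosphate dehydrogenase, at 1.08, 1.13, 0.93, 1.18 and 1.34 (1.13 ± 0.12, adjusted p = 6.4e-09), then Pgi (0.37 ± 0.10) and Pglym78 (0.34 ± 0.09), 2 enzymes of glycolysis. UGP, which makes UDP-glucose, was lower (-0.27 ± 0.08) with replicate 5 at 0.28 against the others between -0.46 and -0.34. Leaving out 1 array ended the calls of Pgi (replicates 1, 2 or 5), Pglym78 (1, 2 or 4) and UGP (any of 1 to 4). None of 16 respiratory chain and ATP synthase genes passed.

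Of the complex's own genes CSN5 alone passed among the 5 measured. The other COP9 subunits measured were CSN1b, alien and CSN7 besides CSN4, and none of these passed, with log2 ratios between -0.11 and 0.17. Of 18 genes of cullin ligases and neddylation 3 were higher and none lower, 16.7% of the list beside 7.89% of all features, with a median of 0.05. They were Keap1, the cullin Cul6 (0.53 ± 0.12, limma adjusted p = 0.00331, all arrays between 0.36 and 0.68) and the F-box adaptor Skp2 (0.31 ± 0.09, adjusted p = 0.0226, replicate 5 at -0.02), the last not past the test without replicate 1, 2 or 4. Without replicate 5 Uba3, a subunit of the enzyme that activates NEDD8, was also higher, by 0.28. Of 19 proteasome genes 1 was lower (5.26%), Prosbeta2 (-0.23 ± 0.07, adjusted p = 0.0381), and none passed without replicate 5. Prosbeta2 also did not pass without replicate 1, 2 or 3 (limma adjusted p up to 0.129).

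Of 45 measured genes of the cell cycle and DNA replication 7 were higher and none lower (15.6%, beside 7.89% of all features), and 13 were higher and none lower without replicate 5 (28.9%, beside 14.4%). The list's median was 0.28, 0.25, 0.32 and 0.28 on replicates 1 to 4 and -0.36 on replicate 5. On replicates 1 to 4 together 28 of the 45 genes were above 0 on every array, against 1481 of all 5871 features. On replicate 5 only 6 of the 45 were above 0, against 3021 of all 5871 features. aurB, a mitotic kinase, read 1.00, 1.03, 0.82, 0.96 and 0.43 (0.84 ± 0.14, limma adjusted p = 4.96e-05). It differed from the replication genes in that replicate 5 was above 0 as well. Cdc45, part of the replicative helicase, read 0.66, 0.47, 0.84 and 0.53, and -0.44 on replicate 5 (0.40 ± 0.11, and 0.63 without it). Mcm3, another helicase subunit, read 0.56, 0.56, 0.58 and 0.62, and -0.31 on replicate 5 (0.40 ± 0.11, and 0.58 without it). Dp, the partner of the E2F transcription factors, and the histone-binding Caf1-55 followed the same order, with -0.13 and -0.36 on replicate 5. The calls of Cdc45, Mcm3 and Caf1-55 ended when any one of replicates 1 to 4 was left out, with adjusted p up to 0.143, 0.111 and 0.178, and that of Dp without replicate 1 or 3 (up to 0.0702). The list's median was -0.06 in csn4null, -0.55 in csn51 and -0.59 in csn53 at 60 h.

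Of 20 factors for mitochondrial gene expression and upkeep 2 passed (10%, near the 7.89% of all features). mTerf3 was lower and TFAM, which packages mitochondrial DNA, was higher (0.28 ± 0.08, limma adjusted p = 0.0152). Without replicate 5, 3 of the 20 factors were higher and 2 lower (25%, beside 14.4% of all features). TFAM read 0.31 to 0.52 on replicates 1 to 4 and -0.25 on replicate 5, and did not pass without any one of replicates 1 to 4. Among 19 mitochondrial ribosomal protein genes mRpL24 was higher (0.40 ± 0.10) and mRpS31 lower (-0.55 ± 0.08), each with one sign on all 5 arrays. That was 10.5% of the list, again near the 7.89% of all features. Without replicate 5, 3 of these 19 genes were higher and 1 lower (21.1%, beside 14.4%). Of 21 heat shock and chaperone genes none passed with all arrays and 4 were higher without replicate 5 (19%, beside 14.4% of all features). DnaJ-1, an Hsp40 co-chaperone, read 2.15, 0.60, 1.70 and 0.53 on replicates 1 to 4 and -1.72 on replicate 5. Its log2 ratio was 0.67 ± 0.35 (adjusted p = 0.322) with all arrays and 1.24 (adjusted p = 0.0102) without replicate 5. The mitochondrial chaperone Hsp60A read 0.47 to 0.74 on replicates 1 to 4 and -0.73 on replicate 5.

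**Figure D3:**
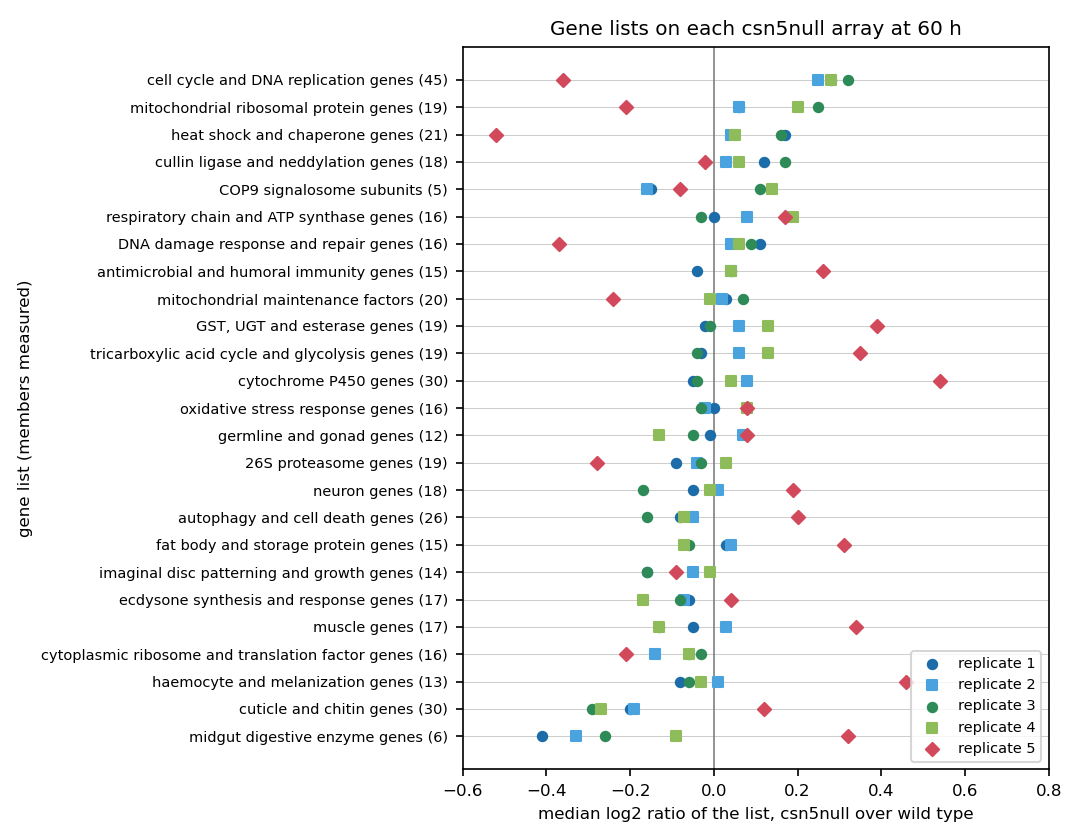
Median log2 ratio of each gene list on each of the 5 arrays, with the number of measured members in brackets, ordered by the median without replicate 5. Replicates 1 to 4 lie close together in most lists. Replicate 5 lies below 0 for cell cycle (-0.36) and chaperone genes (-0.52), and above 0 for P450 (0.54) and haemocyte genes (0.46).

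A further set of genes changed strongly in replicates 1 to 4 and the other way in replicate 5. They were named because replicate 5 opposed or removed their call, so its place apart was largely fixed by that choice. Paip2, an inhibitor of translation that binds poly(A)-binding protein, read -3.37, -1.78, -3.44 and -1.70 on replicates 1 to 4 and 2.63 on replicate 5. Its log2 ratio was -1.51 ± 0.43 with all arrays (limma adjusted p = 0.0198) and -2.57 without replicate 5 (adjusted p = 6.16e-08). That SE pools all groups, whereas the SD of the 5 csn5null arrays was 2.47 for this gene. Without any one of replicates 1 to 4 Paip2 did not pass (adjusted p from 0.0678 to 0.298). Within the first 4 arrays replicates 1 and 3 were about equal and lower than replicates 2 and 4. TP53INP, a homologue of the human p53-inducible nuclear proteins that act in autophagy, read -2.88, -1.10, -3.17 and -1.28, and 3.58 on replicate 5. It did not pass with all arrays (-0.94 ± 0.46, adjusted p = 0.263) and fell by 2.11 without replicate 5 (adjusted p = 3.54e-06). Drat, a gene of the response to cell death signals, read -3.04, -1.40, -3.11 and -1.35, and 1.92 on replicate 5. The cuticle protein gene Cpr49Ac read -2.90, -1.47, -2.99 and -1.60, and 1.17 on replicate 5. Its call, like that of Drat, ended without replicate 1 or 3 (adjusted p up to 0.0721 and 0.157).

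Among replicates 1 to 4, Paip2, TP53INP, Drat and Cpr49Ac shared an order, with replicates 1 and 3 lower than replicates 2 and 4. Replicate 5 was the highest array in each, which the way these genes were named largely fixed. phu was even over the first 4 arrays, at -1.80, -1.58, -1.97 and -1.91, and 0.91 on replicate 5 (-1.26 ± 0.23). Among the rises without replicate 5 CG11892 read 1.15 to 1.50 on replicates 1 to 4 and -1.33 on replicate 5, CG1074 0.74 to 1.21 and -0.65, and sxe2, a lipase family gene, 0.44 to 1.32 and -0.14. ImpL2, a secreted protein that binds insulin-like peptides, read 0.99, 0.90, 1.04 and 0.92, and -0.32 on replicate 5 (0.97 without it, limma adjusted p = 0.012). Of 26 autophagy and cell death genes 1 was lower (3.85%, beside 7.89% of all features), and 1 higher and 4 lower without replicate 5 (19.2%, beside 14.4%). Atg16, which acts in autophagosome formation, was lower with all arrays and without replicate 5 (-0.26 ± 0.07), but did not pass without replicate 1 (adjusted p = 0.07). The kinase gene Atg1 read -0.91 to -0.58 on replicates 1 to 4 and 0.94 on replicate 5, and AIF, the apoptosis-inducing factor of mitochondria, 0.46 to 0.77 and -0.93.

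Of 30 cuticle and chitin genes none was higher and 2 were lower, dyl and Cpr49Ac (6.67%, beside 7.89% of all features), and 1 was higher and 5 lower without replicate 5 (20%, beside 14.4%). The list's median was -0.20, -0.19, -0.29 and -0.27 on replicates 1 to 4 and 0.12 on replicate 5. It was 0.70 in csn4null, 1.24 in csn51 and 1.25 in csn53 at 60 h, and 0.27 in csn5null at 72 h. Osi14 and Osi6, members of the Osiris family of epidermal proteins made while cuticle is laid down, were below 0 on all 5 arrays. Osi14 read -1.82, -2.03, -2.35, -2.02 and -0.67, and did not pass in the model (-1.78 ± 0.72, limma adjusted p = 0.145). That SE pools all groups and was larger than the SD of the 5 csn5null arrays, which was 0.65 for this gene. The miss thus does not speak of the scatter among these 5 arrays alone. Osi6 read between -2.26 and -1.57 on replicates 1 to 4 and -0.18 on replicate 5 (-1.54 ± 0.55, adjusted p = 0.0795, and 0.0325 without replicate 5). ImpL1, an ecdysone-inducible gene, read -1.69, -1.40, -3.22, -1.26 and -0.44 and did not pass either way. Its SE was pooled over all groups in the same way.

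In the other groups those genes lay above 0 on most arrays. Osi14 was 2.41 and 3.67 on the 2 csn4null arrays with a value, 2.19 to 5.71 in csn51 and 1.68 to 8.87 in csn53. At 72 h the csn5null arrays read 1.76 to 3.29, so the groups did not overlap with csn5null at 60 h. The difference was -4.79 ± 1.38 from csn4null (limma adjusted p = 0.0226), -5.69 ± 0.90 from the mean of csn51 and csn53 (adjusted p = 3.08e-06) and 4.25 ± 1.08 for 72 h minus 60 h (adjusted p = 0.0231). CG3108 was 2.11 and 2.22 on 2 csn4null arrays, 1.88 to 6.20 in csn51, 0.15 to 3.60 in csn53 and -0.15 to 4.67 in csn5null at 72 h, again without overlap. Its differences were -4.75 ± 1.44, -5.31 ± 0.96 and 4.54 ± 1.15. dyl was 0.59 to 2.05 in csn4null, 2.16 to 4.05 in csn51, 0.95 to 3.01 in csn53 and 0.09 to 2.76 in csn5null at 72 h, and differed by -4.08 ± 0.58 from the mean of csn51 and csn53 (adjusted p = 4.86e-07). Osi14 and CG3108 were named for their large differences in all 3 comparisons and dyl in 1. For these 3 genes every csn5null array at 60 h was below every array of csn4null, csn51 and csn53 at 60 h and of csn5null at 72 h. The 96 h arrays were not part of that comparison. Of 5601 features 43 (0.768%) had that order and 25 (0.446%) the opposite one. For 72 h minus 60 h the calls of Osi14 and CG3108 ended without any one of replicates 1 to 4 of 60 h or replicate 4 of 72 h, and that of CG3108 also without replicate 1 of 72 h (adjusted p up to 0.0663 and 0.084). Against csn4null the call of CG3108 ended without any one of replicates 1 to 4 (up to 0.0675), and that of Osi14 without replicate 1 (0.0526). Without replicate 3 of 72 h and of 96 h the 72 h minus 60 h difference was 4.49 for Osi14 and 5.18 for CG3108.

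Osi6 differed by -3.98 ± 0.90 from csn4null and by 3.02 ± 0.82 for 72 h minus 60 h, and ImpL1 by 3.39 ± 0.98 (limma adjusted p = 0.0479) for the same ages. CG4702 rose by 3.54 ± 0.96 over those 12 h, from arrays between -2.50 and -0.42 to arrays between 0.03 and 4.72. The Tweedle cuticle protein gene TwdlF was -1.37 to -0.34 in csn5null at 60 h and 2.11 to 4.22 in csn4null, a difference of -4.02 ± 1.29 (adjusted p = 0.0395). That call ended without any one csn4null array or any one of replicates 1 to 4 (adjusted p up to 0.144). The 72 h minus 60 h calls of Osi6, ImpL1 and CG4702 likewise ended without any one of replicates 1 to 4 of 60 h, or replicate 1 or 4 of 72 h (up to 0.101, 0.154 and 0.117). At 96 h these genes were back near wild type in csn5null, with means of 0.13 for Osi14, -0.16 for CG3108, 0.37 for dyl and 0.07 for Osi6. TwdlL behaved otherwise, with -0.10 to 1.20 at 60 h and 2.30 to 4.30 at 96 h, a difference of 2.95 ± 0.63 (adjusted p = 0.00219). Replicate 5 was the csn5null array nearest to 0 for Osi14, CG3108, dyl, Osi6, ImpL1 and CG4702, and not for TwdlF.

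**Figure D4:**
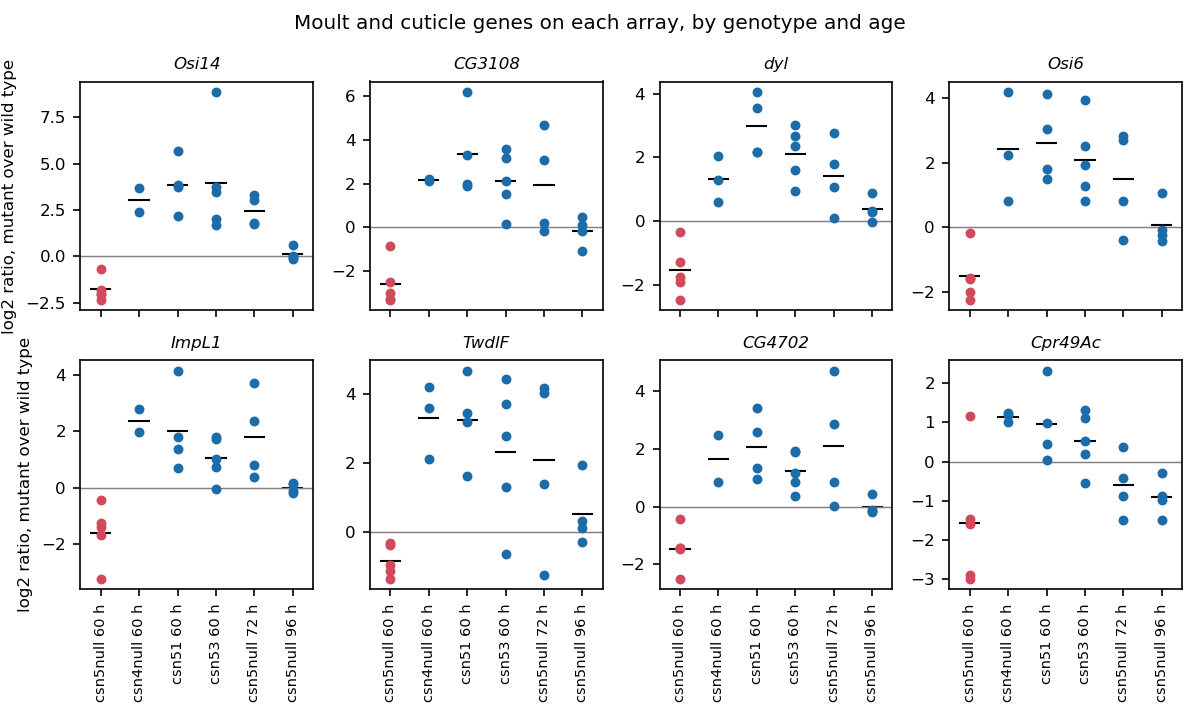
Log2 ratio of 8 moult and cuticle genes on every array with a value (vertical axes, mutant over wild type, scaled per gene), by genotype and age. Red points are the 5 csn5null arrays at 60 h, blue points the other groups, and bars the group means. For Osi14, CG3108 and dyl every red point lies below every blue point at 60 h and 72 h.

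Between genotypes at 60 h the model called 558 of 5601 features (9.96%) in csn5null minus csn4null, and 2575 of 5870 (43.9%) in csn5null minus the mean of csn51 and csn53. Without replicate 5 the counts were 1322 (23.6%) and 2938 (50.1%). Against csn4null the count was 150 without csn4null replicate 2, 234 without its replicate 1, and 247, 304, 324 and 335 without csn5null replicates 1, 2, 3 and 4. Since 3 csn51 arrays and all csn5null arrays may share wild-type RNA, their ratios are not independent. The largest positive differences from csn4null were in genes far below wild type in csn4null. Arc1, a capsid-like protein gene, was -3.79 to -3.43 in csn4null, 1.64 to 2.74 over csn51 and csn53, and -0.33 to 0.28 in csn5null (difference from csn4null 3.58 ± 0.36, limma adjusted p = 1.43e-09). The deubiquitinase gene Usp14 and the histone chaperone gene Nasp had the same order, with csn5null means of 0.00 and 0.02 and differences from csn4null of 2.88 ± 0.36 and 2.84 ± 0.36. The means of Arc1, Usp14 and Nasp were close in csn51 (2.13, 2.07 and 2.02) and csn53 (1.89, 1.84 and 1.78). In csn4null they were -3.58, -2.83 and -2.76. Whether the ratios of these genes are independent measurements was not tested. Cyp4p2 was -6.20 and -2.57 on 2 csn4null arrays and -0.05 to 1.19 in csn5null. CG4594 was above 0 on all 5 csn5null arrays (0.85 ± 0.16, adjusted p = 0.000233) and -2.48 and -1.11 on 2 csn4null arrays.

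Cyp6a8 and Srg2 rose in csn5null and csn4null alike in sign, but were not uniform over the CSN5 mutants. Cyp6a8 was 3.43 and 4.66 on 2 csn4null arrays and 2.29 to 3.90 in csn53, whereas all 4 csn51 arrays were below 0, between -1.09 and -0.16. Its difference from the mean of csn51 and csn53 was 2.31 ± 0.45 (limma adjusted p = 6.25e-05). Srg2 was 1.73 to 4.37 in csn4null, 0.72 to 2.05 in csn51 and -0.97 to 1.45 in csn53, and differed from the mean of csn51 and csn53 by 2.46 ± 0.48 (adjusted p = 5.92e-05). Mettl2, a methyltransferase-like gene, was near wild type in csn5null (-0.37 to 0.24) and between -2.72 and -1.59 over csn51 and csn53 (difference 2.12 ± 0.15, adjusted p = 4.27e-13). Idh was above 0 on every array of csn4null, csn51 and csn53, with means of 1.02, 0.87 and 1.08, and mTerf3 had means of -1.56, -1.58 and -1.36.

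Over time in csn5null, 168 features (2.86%) differed between 72 h and 60 h and 436 (7.43%) between 96 h and 60 h, and without replicate 5 there were 679 (11.6%) and 918 (15.6%). Without the replicates 3 of 72 h and 96 h, whose CSN5 was near wild type, 207 and 947 features differed, and the named differences of both ages that are given here kept their call. Without any one of replicates 1 to 4 of 60 h the 72 h count was 64 to 90, and with replicates 1 and 3 and 2 and 4 averaged it was 9. For 96 h it was 271, 241, 819 and 214 without replicates 1, 2, 3 and 4 of that age, and 290 without replicate 1 of 60 h. Cpr67B and Cpr11B, cuticle protein genes, were 0.10 to 0.56 and 0.27 to 0.86 at 60 h and -2.83 to -0.62 and -2.46 to -0.09 at 72 h. Their differences were -2.09 ± 0.35 (limma adjusted p = 0.00102) and -2.08 ± 0.32 (adjusted p = 0.000313), so cuticle genes moved both ways between these ages. Hpd, an enzyme of tyrosine breakdown, read -0.56 to -0.06 at 60 h, and at 72 h -3.22, -3.45 and -3.43 on 3 arrays and 0.10 on replicate 3 (difference -3.19 without the replicates 3, limma adjusted p = 0.000114, and 0.0543 without replicate 4 of 72 h). The prophenoloxidases of crystal cells, which make melanin, were at or above wild type at 60 h and below it at 96 h. PPO2 was 0.44 to 1.20 at 60 h and -1.88 to -0.45 at 96 h (difference -1.99 ± 0.25, adjusted p = 1.8e-06). PPO1 was 0.10 to 0.98 and then -2.62 to -0.36 (difference -2.15 ± 0.28, adjusted p = 1.8e-06). Without the replicates 3 these differences were -2.31 and -2.63, and that of TwdlL 3.27. Fbp2, a fat body gene of the late last instar, was -0.79 to 0.14 at 60 h and -7.02, -7.52 and -7.40 on 3 arrays at 96 h, with -0.01 on replicate 3 (difference -7.14 without the replicates 3, adjusted p = 2.95e-09).

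Lists of genes that mark tissues had between 0% and 23.1% of their members called, beside 7.89% of all features. Of 13 haemocyte and melanization genes 3 were higher (23.1%), PPO2 (0.64 ± 0.17), PPO3 (0.58 ± 0.18) and Sp7 (0.42 ± 0.13), and without replicate 5 none was higher and 2 were lower, srp and Idgf2. The 3 genes lost their call without replicate 5, on which PPO3 read 1.37. PPO3 also failed the test without any other single array, and Sp7 without replicate 2 or 4. Of 17 muscle genes 1 was lower, sls (-0.51 ± 0.12), not past the test without replicate 1. None of 18 neuron, 12 germline and 14 disc patterning genes passed with all arrays. Without replicate 5 the neuron gene Ace (-0.55, limma adjusted p = 0.000905) and the disc gene Egfr (-0.33, 0.000344) were lower and the germline gene exu was higher (0.37, 0.0437). Of 15 fat body genes 3 passed (20%). The fatty acid synthase gene FASN1 (0.82 ± 0.21) and the desaturase gene Desat1 (0.43 ± 0.11) were higher and mdy, an acyltransferase of fat storage, was lower (-0.34 ± 0.11). Desat1 did not pass without replicate 5, FASN1 without replicate 1 or 2, and mdy without any one of replicates 1 to 4. Without replicate 5, 1 of the 15 fat body genes was higher and 3 were lower (26.7%, beside 14.4% of all features). Of 6 midgut enzyme genes 1 was higher, mag, a lipase (1.03 ± 0.28), with 2.18 on replicate 5 and no call without replicate 4 or 5. Without replicate 5 no midgut gene was higher and 2 were lower, Mal-A5 (-0.46) and Jon65Aiii (-0.34), 33.3% beside 14.4% of all features. List medians ran from -0.18 in midgut to 0.00 in muscle, neuron and germline genes with all arrays, and on replicate 5 those of haemocyte, fat body, midgut and muscle genes were 0.31 to 0.46. The array holds ratios, so levels of these markers are unknown and the part of tissue composition in the results above was not tested.

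Of the 20 measured genes nearest to CSN5, 10 on each side on 3R, 1 passed, Fntb, a farnesyltransferase subunit gene (0.298 ± 0.0697, limma adjusted p = 0.00331), and 3 passed without replicate 5, when 14.6% of the genes on 3R were called. The call of Fntb ended without replicate 1 or 4 (limma adjusted p up to 0.0564). The 20 log2 ratios lay between -0.22 and 0.30. By chromosome arm 8.65% of tested named genes on 3R were called, against 9.05% on 2L, 7.19% on 2R, 8.6% on 3L and 4.14% on X, and none of 28 genes on chromosome 4.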

How the data were processed

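Total RNA of whole larvae was extracted with TriZol and labelled through aminoallyl cDNA with Cy3 and Cy5, per the labels' protocols. The deposited table holds 1 log ratio per entry and array for 51 arrays. It was read as log2 values of the authors, as wild type over mutant, because CSN4 and CSN5 lay above 0 in their own nulls. All signs were then turned. The log base, background correction and normalization were not given in the sources used here, and a natural logarithm is possible. Array medians lay between -0.0197 and 0.0249, so the values had been centred. Intensities were not used here, so the number of arrays limits the precision.

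Of 6621 entries 32 controls and 28 without any value were left out. Symbols came from the platform's annotation table: 5072 entries had 1 symbol, of which 4993 matched RefSeq, 176 had several and 1341 had none. Entries of one gene, and 316 pairs of duplicate spots without a symbol, were averaged on each array, which gave 5871 features, 4698 of them named. Groups came from titles and source names.

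limma 3.58.1 in R 4.3.3 fitted 1 coefficient for each of 12 groups over all 51 arrays, with the mutant's dye as a covariate. Tests were two-sided with Benjamini-Hochberg adjustment over all features of a comparison, at 0.05. Features measured on fewer than 2 arrays of any group compared were not tested. The procedure was tested on simulated data. Alternatives changed the dye term, arrays in the fit, scaling, centring, array weights, entries, missing values and a replicate block. In no group did every same-numbered array correlate above 0.1 with its csn5null counterpart (range -0.56 to 0.31). Arrays were thus not paired by replicate number, and no blocked result is given in the text above. That cut does not exclude a pairing, and in csn5null at 72 h the 4 pairs lay between 0.05 and 0.14. The members and gene lists were chosen with earlier results of these data known. Named genes were CSN5 and CSN4, the 12 largest rises and 12 largest falls past the test with one sign on all arrays, the 6 largest each way that replicate 5 opposed or removed, the 5 largest differences each way per comparison, up to 5 members per list by p, and neighbours of CSN5 past the test. Not every gene under the rule is printed. Tables and plots were made with pandas 2.3.3 and matplotlib 3.10.9.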

Additional observations from a re-analysis of the deposited data

Results flagged for a closer look

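Among 92 genes given in the text, 26 had 1 csn5null array at 60 h whose gap to the nearest other array was beyond Dixon's 95% critical value for 5 samples. Chance alone would give such an array in about 1 in 20 groups if the genes were taken at random. The 92 genes were not so taken, since some were named because replicate 5 opposed the other arrays (Paip2, phu, CG11892, CG1074, ImpL2 and Gclm among them), so the count is a description and was not set against that rate. In 25 of the 26 genes the array was replicate 5. It lay above the others for CG8745 (3.60), Cyp6w1 (1.70), UGP (0.28), Paip2 (2.63), phu (0.91), Atg1 (0.94), Atg16 (-0.03), PPO2 (1.20), PPO3 (1.37), Cyp4p2 (1.19), TwdlL (1.20), mTerf3 (-1.24) and Unc-115b (-0.96). It lay lower than the others for Oatp33Ea (1.30), Gclm (-0.20), Mcm3 (-0.31), Dp (-0.13), Caf1-55 (-0.36), TFAM (-0.25), Hsp60A (-0.73), CG11892 (-1.33), CG1074 (-0.65), ImpL2 (-0.32), AIF (-0.93) and Hpd (-0.56). For Fbp2 the outlying array was replicate 4, at -0.79.

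Several genes differed between groups by the limma test of the difference itself. Compared with csn4null at 60 h, csn5null was lower in Osi14 (-4.79), CG3108 (-4.75), TwdlF (-4.02) and Osi6 (-3.98), and higher in Arc1 (3.58), Usp14 (2.88) and Nasp (2.84). Compared with the mean of csn51 and csn53 it was lower in Osi14 (-5.69), CG3108 (-5.31) and dyl (-4.08), and higher in Srg2 (2.46), Cyp6a8 (2.31) and Mettl2 (2.12). From 60 h to 72 h the log2 ratio in csn5null moved by 4.54 for CG3108, 4.25 for Osi14, 3.54 for CG4702, 3.39 for ImpL1 and 3.02 for Osi6, and by -2.09 for Cpr67B and -2.08 for Cpr11B. From 60 h to 96 h it moved by 2.42 for CSN5, 2.95 for TwdlL, -2.15 for PPO1 and -1.99 for PPO2.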

How the results depend on the processing

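Counts of called features moved widely between settings, and many named values lost their call in some of them. For csn5null at 60 h (463), against csn4null (558), against the mean of csn51 and csn53 (2575), 72 h minus 60 h (168) and 96 h minus 60 h (436), leaving out 1 array of the groups gave 282 to 845, 150 to 1322, 2125 to 2938, 64 to 679 and 214 to 918. Scaling the arrays gave 1443, 1505, 883 and 1060, with no large move against csn51 and csn53, and array weights gave 2320, 2776, 3964, 1966 and 1922. A fit on the compared arrays with the dye term gave 264, 363, 20 and 172, again other than against csn51 and csn53, and without the dye term 28 for 72 h and 225 for 96 h. Leaving out replicate 3 of 72 h and of 96 h gave 947 for 96 h. Alternatives chosen after seeing the data were 3. Leaving out replicate 5 together with these replicates 3 gave 1017, 1622, 3140, 793 and 1460. Fitting the compared arrays without replicate 5 and without a dye term gave 1922 at 60 h, 2284 against csn4null, 516 for 72 h and 939 for 96 h. Averaging replicates 1 and 3, and 2 and 4, gave 157, 140, 1656, 9 and 175. The cause of these moves was not tested. The replicate block gave 462, 566, 2579, 168 and 439, and changed no call among the 119 named values. Those 119 also kept their call without the dye term and with each array centred, 2 lost it with each entry on its own, 42 in the fit on the compared arrays with the dye term, 35 in that fit without it, and 48 with replicates 1 and 3 and 2 and 4 averaged. Of the 79 values for csn5null at 60 h, 29 lost their call in the fit on its own arrays with the dye term and 23 without it. Under scaling 11 named values gained a call, among them Osi14, Osi6 and ImpL1 in csn5null at 60 h. No named value changed direction under these alternatives while called. The number of arrays limits the precision, and signal over background is unknown.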
